A study of Mus musculus with 18 samples.

Results

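The 12 arrays of undifferentiated mouse stem cells were used to ask for which genes the difference between adult and embryonic stem (ES) cells itself differed between both genetic backgrounds. They were chosen by their sample titles from the 18 arrays of the series, and the other arrays hold differentiated cells. The 4 groups, with 3 arrays each, were undifferentiated adult stem cells and ES cells of the Stra8-EGFP/Rosa26 background (Stra8 here), and undifferentiated adult stem cells and ES cells of the 129SV background. The title of the series calls the adult cells germline stem cells. Total RNA was labelled with biotin from 300 ng and hybridised to Affymetrix Mouse Gene 1.0 ST arrays, which read a gene as a group of short probes called a probe set. The measure described is the interaction: adult minus ES in Stra8, minus adult minus ES in 129SV, in log2 units. A positive value means that the adult-minus-ES difference was the more positive in Stra8. Each group carries 1 line-like name of its own in the labels, so line, background, origin and culture history cannot be told apart. The sample titles call the 3 arrays of a group biological replicates. The labels state neither feeder cells nor how many separate cultures stand behind these replicates, and the p-values measure the spread between these samples.

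Pluripotent cells, from an embryo or from cultured germ cells, share a core network around Pou5f1, Sox2 and Nanog. Cultures can still differ in innate immune tone, in which interferon activates STAT and IRF factors that bind the interferon-stimulated response element of their target promoters. They can also differ at imprinted genes, which are read from the copy of 1 parent, and in the traces of early differentiation that accompany self-renewal. Imprints are erased and reset in the germ line, and adult germline stem cells in culture have been compared with ES cells for that reason.

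No detection call or background level was at hand, so no level could be set against background, and the label of undifferentiated cells could be read only from differences between groups. The 27 measured genes of the pluripotency list averaged 10.55 in adult Stra8, 10.90 in ES Stra8, 10.57 in adult 129SV and 10.47 in ES 129SV on the log2 signal scale. Pou5f1, the central factor of this network, gave 12.23 to 12.29 in adult Stra8, 12.26 to 12.33 in ES Stra8, 12.52 to 12.63 in adult 129SV and 12.51 to 12.68 in ES 129SV. The 16 measured macrophage and blood markers averaged 6.94, 6.70, 6.97 and 7.0 in the groups in the same order, and the 14 markers of somatic testis cells 6.60, 6.50, 6.91 and 6.75. The 24 fibroblast markers averaged 10.38 to 10.42 per array in adult Stra8, 9.62 to 9.67 in ES Stra8, 9.97 to 10.02 in adult 129SV and 10.75 to 10.79 in ES 129SV, so this list differed between the groups with no overlap of their arrays.

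Promoter sequences of Ifit3, Trim30a and Ifit1 are shown because ES 129SV stood high for 30 of the 34 interferon effectors and these 3 had the most positive interactions among the effectors whose promoter holds the response element, searched as GAAA, any 2 bases and GAAA on either strand. Each runs 5′ to 3′ along the gene, from 250 bases before its start to 50 after, and is taken from RefSeq on build GRCm38.p6. Capitals mark the element, here read on the opposite strand.
Ifit3 promoter (chr19:34583279-34583578, plus strand): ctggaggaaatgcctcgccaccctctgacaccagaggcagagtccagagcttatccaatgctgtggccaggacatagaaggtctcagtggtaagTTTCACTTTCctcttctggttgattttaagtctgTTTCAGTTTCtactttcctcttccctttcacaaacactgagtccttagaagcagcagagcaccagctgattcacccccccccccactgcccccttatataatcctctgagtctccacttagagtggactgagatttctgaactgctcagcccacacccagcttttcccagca
Trim30a promoter (chr7:104446076-104446375, minus strand): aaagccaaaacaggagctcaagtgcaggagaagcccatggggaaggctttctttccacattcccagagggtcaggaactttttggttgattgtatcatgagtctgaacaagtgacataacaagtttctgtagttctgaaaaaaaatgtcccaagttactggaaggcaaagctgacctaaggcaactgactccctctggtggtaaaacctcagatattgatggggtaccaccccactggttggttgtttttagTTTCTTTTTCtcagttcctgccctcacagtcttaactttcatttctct
Ifit1 promoter (chr19:34640639-34640938, plus strand): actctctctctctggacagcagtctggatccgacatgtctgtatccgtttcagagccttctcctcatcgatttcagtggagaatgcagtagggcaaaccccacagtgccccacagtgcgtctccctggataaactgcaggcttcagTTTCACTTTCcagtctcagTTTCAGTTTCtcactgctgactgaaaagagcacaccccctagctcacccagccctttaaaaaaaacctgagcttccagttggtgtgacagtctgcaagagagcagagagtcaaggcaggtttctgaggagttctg
The element was present in 1131 of 32851 promoters of this length, or 3.44%. Among the genes tested it was present in 607 of 15614 with a promoter in the table, or 3.89%, and among the 24 interferon effectors with one it was present in 10, or 41.7%. A match of letters is a description and not evidence of binding.

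Mature microRNAs of the imprinted Dlk1-Dio3 region of chromosome 12 are shown because genes there supplied the longest run of neighbours high in ES Stra8. The genes of miR-376a, miR-376b and miR-376c lie in that run, and those of miR-377, miR-379 and miR-411 outside it. The sequences are credited to RefSeq on build GRCm38.p6, and capitals mark the seed, bases 2 to 8, which pairs with target messages.
miR-379-3p: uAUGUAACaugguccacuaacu
miR-411-3p: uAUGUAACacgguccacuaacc
miR-376b-5p: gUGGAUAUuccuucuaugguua
miR-376c-5p: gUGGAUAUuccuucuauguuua
miR-376a-3p: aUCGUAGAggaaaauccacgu
miR-377-3p: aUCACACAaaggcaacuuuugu
The 40 measured microRNA genes of the region matched 76 mature sequences with 74 different seeds. The first pair shown shares 1 seed and the second pair another, and these were the 2 seeds shared in the region. The arrays were labelled from total RNA and their probe sets are named for the hairpin genes, so their values are not levels of the mature forms.

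With 1 mean per group fitted by limma, 9644 of 19938 genes were called for the interaction at an adjusted p under 0.05, which is 48.4% of the genes tested. Of these, 4631 (23.2%) were positive and 5013 (25.1%) negative, and 10688 genes had an unadjusted p under 0.05. In a fit of all probe sets 40.4% were called, 46.2% of those with 1 gene symbol and 31.3% of those with several or none. The median interaction over the genes tested was -0.06. An interaction of at least 2-fold was called for 1719 genes (8.62%), of which 1261 (6.32%) were positive and 458 (2.3%) negative. For 17126 genes (85.9%) the 95% interval of the interaction lay within a 2-fold difference, and the median standard error was 0.101. Differences among the group means divided into 18.8% for origin, 45.4% for background and 35.8% for the interaction, as shares of the sum of squares over the genes.

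The effects of origin on which the interaction rests were mostly of opposite sign where it was large. An origin effect was called for 6651 genes (33.4%) in Stra8 and 10385 (52.1%) in 129SV. Over all genes tested, called or not, its median absolute size was 0.13 in Stra8 and 0.21 in 129SV. Over the genes tested, 3472 (17.4%) were called in both with opposite signs and 1324 (6.64%) with the same sign. Among the 1719 genes with an interaction of at least 2-fold, 1384 (80.5%) had called effects of opposite sign, 275 a called effect in 129SV alone and 34 in Stra8 alone. The effect was the larger in 129SV for 1378 of them (80.2%). In the remaining 26 genes (1.5%) both called effects had the same sign and differed in size.

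**Figure D1:**
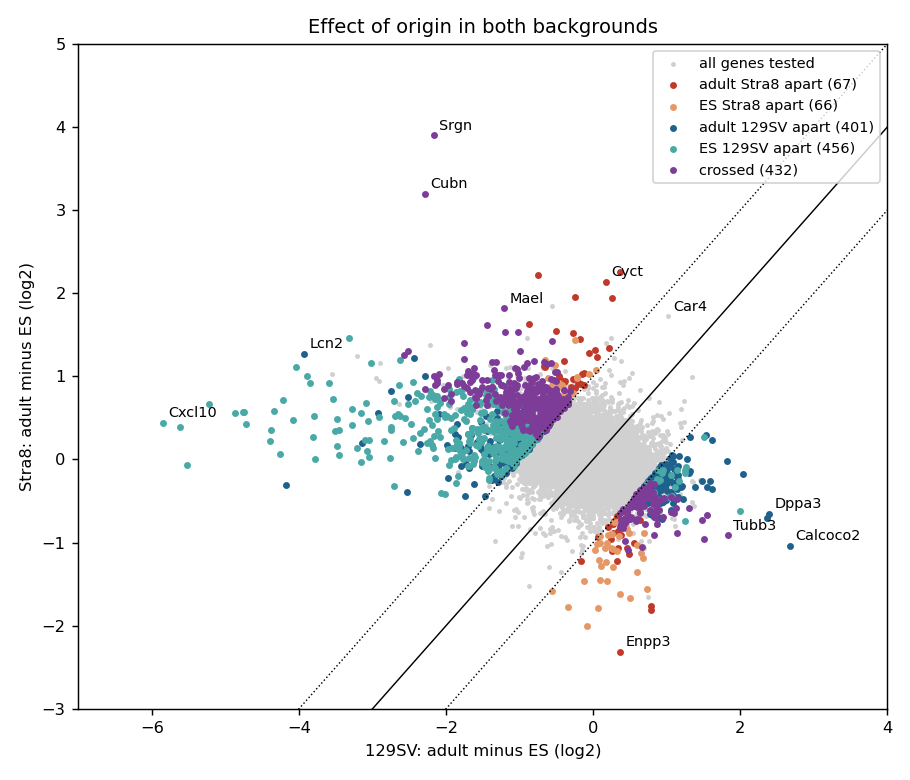
Effect of origin in Stra8 (adult minus ES, log2, vertical) against that in 129SV (horizontal) for the genes tested, 1 point a gene from the means of 3 arrays per group. Colours mark genes with an interaction of at least 2-fold by the group that stood apart, the solid line marks equal effects and the dotted lines a 2-fold interaction, and the coloured genes spread farther along the 129SV axis.

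A group was said to stand apart where its 3 arrays all lay beyond the other 9 on 1 side and its mean was farther from the nearest other group than the range of the other 3 means. Of the 9644 genes called, 5765 (59.8%) had 1 group apart, against 36.1% of the genes tested. Adult 129SV stood apart in 2944 (30.5%), ES 129SV in 1485 (15.4%), ES Stra8 in 696 (7.2%) and adult Stra8 in 640 (6.6%). In 1000 genes (10.4%) the pattern was crossed: adult Stra8 and ES 129SV lay on 1 side, and ES Stra8 and adult 129SV on the other. In 2183 (22.6%) the groups were graded, and the others were split by background (636) or by origin (60).

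The makeup differed by direction among the genes with an interaction of at least 2-fold. Of the 1261 positive genes, 427 (33.9%) were high in ES 129SV and 225 (17.8%) low in adult 129SV. Crossed genes made up 327 (25.9%), while 41 (3.3%) were high in adult Stra8 and 30 (2.4%) low in ES Stra8. Of the 458 negative genes, 176 (38.4%) were high in adult 129SV, 105 (22.9%) crossed, 36 (7.9%) high in ES Stra8, 29 (6.3%) low in ES 129SV and 26 (5.7%) low in adult Stra8. Over all genes tested, irrespective of the interaction, the same rule put adult Stra8 high in 1.82% and low in 2.38%, ES Stra8 high in 2.86% and low in 2.18%, adult 129SV high in 10.9% and low in 7.45%, and ES 129SV high in 5.26% and low in 3.29%. Crossed genes with a positive interaction were 2.49% and those with a negative one 2.52%.

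**Figure D2:**
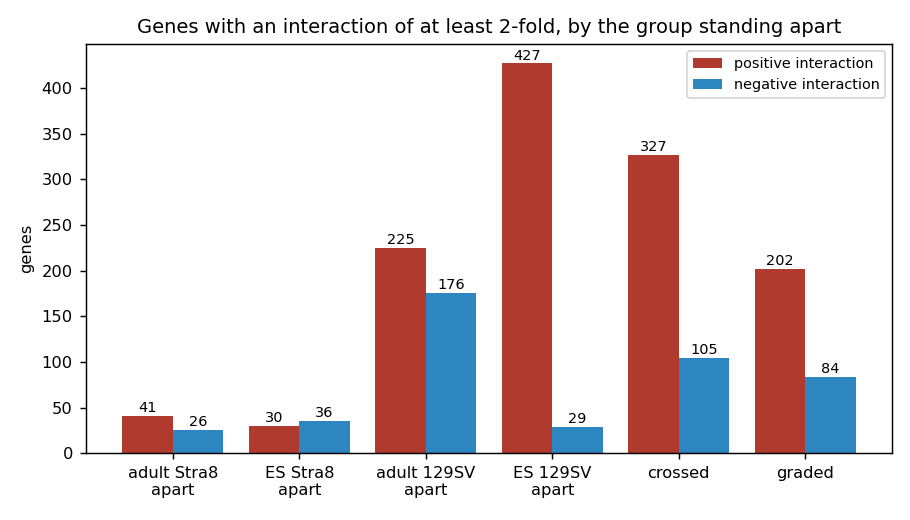
Number of genes with a called interaction of at least 2-fold (vertical), by the group that stood apart, in the positive (red) and negative (blue) direction. ES 129SV held 427 positive genes and adult 129SV 225 positive and 176 negative ones, and the 11 genes split by background are not drawn.

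Genes high in ES 129SV were led by the interferon response. Of the 34 measured interferon effectors, 33 were called, 32 of them positive, and 30 were high in ES 129SV. Their median interaction was 2.45, against -0.06 over the genes tested, and their median effect of origin was 0.25 in Stra8 and -2.18 in 129SV. The mean level of the list was 7.51 in adult Stra8, 7.25 in ES Stra8, 7.24 in adult 129SV and 9.73 in ES 129SV, with arrays of a group within 0.1 of each other. ES 129SV thus stood apart from 3 groups that lay close together.

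Ifit3, which binds viral RNA complexes with its relatives, gave 6.57, 6.66 and 6.64 in adult Stra8, 6.21, 6.24 and 6.24 in ES Stra8, 5.45, 5.04 and 5.34 in adult 129SV, against 10.88, 10.97 and 10.83 in ES 129SV. The ES 129SV arrays lay far above the other 9, and adult 129SV was the lowest group. The interaction was 6.01 ± 0.12 (SE) with an adjusted p of 1.1e-11 (limma, Benjamini-Hochberg). Its neighbour Ifit3b is a near-identical copy whose probe set may read the same transcripts, and it had an interaction of 5.46 with ES 129SV again apart. Trim30a, an interferon-induced ubiquitin ligase, gave 8.17, 8.18 and 8.15 in adult Stra8, 7.63, 7.59 and 7.56 in ES Stra8, 6.87, 7.12 and 7.11 in adult 129SV, against 11.80, 11.79 and 11.82 in ES 129SV. No group overlapped another for this gene, and its interaction was 5.34 ± 0.09. Usp18, which removes the ubiquitin-like ISG15 from proteins and dampens interferon signalling, had means of 7.97 in adult Stra8, 7.39 in ES Stra8, 6.81 in adult 129SV and 11.56 in ES 129SV. Rsad2, the antiviral protein viperin, differed less among the other groups, with means of 6.41, 6.19 and 6.28 in adult Stra8, ES Stra8 and adult 129SV, and 10.68 in ES 129SV. Ifit1, with the third promoter shown, had an interaction of 4.92.

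Regulators and sensors of the same pathway moved less evenly. Of 28 measured, 18 were positive, 5 negative and 5 not called, with a median interaction of 1.27, and 12 were high in ES 129SV. Irf7, the factor that amplifies interferon production, gave 8.88, 8.77 and 8.74 in adult Stra8, 8.14, 8.24 and 7.98 in ES Stra8, 7.42, 7.13 and 7.36 in adult 129SV, against 12.53, 12.52 and 12.52 in ES 129SV. ES 129SV was again far above, and the other groups did not overlap each other. Its interaction was 5.89 ± 0.12. The RNA sensors Ifih1 and Ddx58 had interactions of 4.32 and 2.51, both with ES 129SV apart. Jak2, a kinase of cytokine receptors, was graded, with means of 9.89 in adult Stra8, 9.26 in ES Stra8, 8.76 in adult 129SV and 10.71 in ES 129SV.

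Interferon-inducible GTPases, MHC class I genes and chemokines showed the same group apart in part. All 5 measured GTPases of the list were positive and high in ES 129SV, with a median interaction of 3.07. Iigp1, which attacks vacuoles that hold parasites, gave 5.64, 5.72 and 5.73 in adult Stra8, 5.24, 5.14 and 5.44 in ES Stra8, 4.79, 5.24 and 5.39 in adult 129SV, against 9.86, 9.93 and 9.77 in ES 129SV. ES 129SV lay far above the rest, among which ES Stra8 and adult 129SV overlapped. Of 12 measured genes of MHC class I presentation, 9 were positive and 1 negative, with a median of 1.07. The peptide transporter Tap1 (interaction 1.89) and the loading factor Tapbp (1.55) were high in ES 129SV, while B2m, the invariant class I chain, was graded with means of 11.88, 11.34, 10.20 and 12.86 in adult Stra8, ES Stra8, adult 129SV and ES 129SV. H2-Q4, a class I heavy chain, was classed instead as low in adult 129SV, at 7.65 against 10.06 to 11.83 in the other groups. Class I genes are close in sequence, and their probe sets may read each other.

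All 23 measured chemokines and NF-kB targets were positive, with a median interaction of 1.98, and 11 were high in ES 129SV. Cxcl10, a chemokine that interferon induces, gave 9.35, 9.26 and 9.11 in adult Stra8, 8.83, 8.73 and 8.82 in ES Stra8, 7.17, 7.45 and 7.27 in adult 129SV, against 13.17, 13.13 and 13.14 in ES 129SV. The groups did not overlap, and its interaction of 6.29 ± 0.11 was the most positive of the genes tested. Cxcl11, a ligand of the same receptor, had means of 6.02, 5.96 and 6.06 in adult Stra8, ES Stra8 and adult 129SV, against 10.31 in ES 129SV. Il6, the inflammatory cytokine, had an interaction of 4.78 and means of 9.23 in adult Stra8, 7.77 in ES Stra8, 7.66 in adult 129SV and 10.99 in ES 129SV, so that its effects of origin were 1.46 in Stra8 and -3.33 in 129SV.

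Fibroblast markers shared the positive sign of these genes more than their pattern over the groups. All 24 listed markers were measured and called, 23 of them positive, with a median interaction of 1.23. Their median effect of origin was 0.71 in Stra8 and -0.66 in 129SV, against 0.25 and -2.18 for the interferon effectors. By the array ranges the list ran from ES Stra8 at the bottom through adult 129SV and adult Stra8 to ES 129SV, with no overlap. Col1a1, the main chain of fibrillar collagen, gave 12.33, 12.35 and 12.33 in adult Stra8, 11.61, 11.56 and 11.59 in ES Stra8, 12.59, 12.70 and 12.60 in adult 129SV, against 13.12, 13.15 and 13.21 in ES 129SV. Of the markers, 7 were crossed, 6 low in ES Stra8, 3 high in ES 129SV and 2 low in adult 129SV, so 1 group did not stand apart for the list as a whole. Prrx1, a mesenchymal factor, was crossed with means of 11.30 in adult Stra8, 10.35 in ES Stra8, 10.50 in adult 129SV and 11.94 in ES 129SV. The smooth muscle genes Acta2 and Tagln were low in ES Stra8, with interactions of 1.04 and 1.09. In these bulk cultures fewer cells of a type and less RNA per cell cannot be told apart, and the part of fibroblasts in the interferon, chemokine and protease results was not tested.

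Matrix proteases followed. Of 15 measured metalloproteinases and inhibitors, 14 were positive and 1 negative, with a median of 1.42. Mmp10 and Mmp9, which degrade matrix and basement membrane, were high in ES 129SV with interactions of 3.54 and 2.69. Mmp13, a collagenase, was low in adult 129SV, with means of 12.83 in adult Stra8, 12.27 in ES Stra8, 10.55 in adult 129SV and 13.47 in ES 129SV. Mmp3, or stromelysin, was graded at 12.16, 11.50, 10.18 and 12.82 in the same order. On chromosome 9 Mmp1b, Mmp3, Mmp1a and Mmp10 formed a run of neighbours with interactions of 1.09 to 3.54, of which Mmp1a and Mmp1b are near-identical.

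Hypoxia and glycolysis genes formed another group high in ES 129SV. Of 27 measured, 26 were positive and 1 not called, and 17 were high in ES 129SV, with a median interaction of 1.09. The list averaged 10.19 in adult Stra8, 9.99 in ES Stra8, 10.32 in adult 129SV and 11.47 in ES 129SV. Ndrg1, a gene induced by low oxygen, gave 8.89, 8.82 and 8.77 in adult Stra8, 8.84, 8.74 and 8.83 in ES Stra8, 9.09, 9.07 and 9.32 in adult 129SV, against 12.21, 12.20 and 12.23 in ES 129SV. Both Stra8 groups overlapped, with an effect of origin of 0.02 there against -3.05 in 129SV. Pfkfb3, which makes an activator of glycolysis, gave 9.20, 9.23 and 9.01 in adult Stra8, 8.63, 8.53 and 8.62 in ES Stra8, 8.58, 8.45 and 8.66 in adult 129SV, against 11.23, 11.31 and 11.11 in ES 129SV. Adult 129SV and ES Stra8 overlapped for this gene. Ero1a, an oxidase of the secretory pathway, and P4ha2, which hydroxylates collagen, had interactions of 3.13 and 2.89 with ES 129SV apart.

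Other genes high in ES 129SV came from smaller groups. Of 21 immediate-early genes, 15 were positive and 3 negative, with a median of 0.49. Ier3, Ccn2 and Ccn1, which respond early to growth signals, had interactions of 2.27, 1.61 and 1.40 with ES 129SV apart. Krt19, a keratin of simple epithelia, had means of 7.85 in adult Stra8, 7.23 in ES Stra8, 8.60 in adult 129SV and 10.32 in ES 129SV. Its list of trophectoderm and simple epithelium genes had 4 positive and 7 negative among 17, against 23.2% and 25.1% of the genes tested. Crabp1, which binds retinoic acid in the cytoplasm, had an interaction of 1.05.

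Genes low in ES 129SV were few, 29 among those of at least 2-fold. Lefty1, an inhibitor of Nodal signalling, gave 10.85, 10.82 and 10.81 in adult Stra8, 10.60, 10.49 and 10.58 in ES Stra8, 10.03, 10.23 and 10.24 in adult 129SV, against 8.72, 8.55 and 8.69 in ES 129SV. ES 129SV lay below all the other arrays, and the interaction was -1.24 ± 0.09. Tet1, an enzyme that oxidises methylated cytosine, gave 12.11, 12.13 and 12.09 in adult Stra8, 12.47, 12.49 and 12.51 in ES Stra8, 12.41, 12.28 and 12.39 in adult 129SV, against 11.68, 11.58 and 11.52 in ES 129SV. Its interaction was -1.15 ± 0.07. Pecam1, an adhesion protein of endothelium that ES cells also carry, had means of 10.01, 10.13, 9.61 and 8.66 in adult Stra8, ES Stra8, adult 129SV and ES 129SV. Among small nucleolar RNAs, Snord42a (-2.61) and Snora16a (-1.49) had ES 129SV apart on the low side, and Nxf3, a relative of the RNA export factors, had an interaction of -1.24.

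Adult 129SV was the group most often apart among all called genes, while among those of at least 2-fold it was apart in 401 and ES 129SV in 456. The genes low in adult 129SV included the response to amino acid shortage. Of 22 measured genes of that response, 16 were positive and 1 negative, with a median of 0.79, and 12 were low in adult 129SV. The list averaged 10.27 in adult Stra8, 10.32 in ES Stra8, 9.14 in adult 129SV and 10.08 in ES 129SV. Chac1, which breaks down glutathione under stress, gave 10.52, 10.51 and 10.56 in adult Stra8, 10.44, 10.31 and 10.44 in ES Stra8, 7.63, 7.87 and 7.79 in adult 129SV, against 9.60, 9.49 and 9.82 in ES 129SV. The adult 129SV arrays lay below the rest, and the interaction was 2.01 ± 0.12. Slc7a11, the cystine transporter, had an interaction of 2.54 with adult 129SV at 6.48 against 8.37 to 8.84 in the other groups. Vldlr, a lipoprotein receptor, gave 9.62, 9.61 and 9.64 in adult Stra8, 9.48, 9.37 and 9.41 in ES Stra8, 7.38, 7.38 and 7.33 in adult 129SV, against 10.45, 10.55 and 10.52 in ES 129SV, and the groups did not overlap. Ddit4, an inhibitor of growth signalling on the same list, was instead high in ES 129SV with an interaction of 1.75.

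Several genes low in adult 129SV lay outside that response. Lcn2, an iron-withholding protein of innate defence, gave 11.47, 11.36 and 11.38 in adult Stra8, 10.21, 9.99 and 10.21 in ES Stra8, 7.44, 7.34 and 7.32 in adult 129SV, against 11.27, 11.36 and 11.26 in ES 129SV. Adult 129SV lay far below the rest, while adult Stra8 and ES 129SV were adjacent with means of 11.41 and 11.30, and the interaction was 5.2 ± 0.10. Dcn, a matrix proteoglycan of fibroblasts, gave 12.52, 12.50 and 12.46 in adult Stra8, 11.76, 11.72 and 11.74 in ES Stra8, 10.15, 10.12 and 10.18 in adult 129SV, against 12.70, 12.69 and 12.63 in ES 129SV. Bhlhe41, a repressor of the circadian clock, had an interaction of 2.65. Grb10, an imprinted adaptor that restrains growth signalling, gave 11.50, 11.48 and 11.45 in adult Stra8, 11.31, 11.29 and 11.32 in ES Stra8, 9.18, 9.07 and 9.20 in adult 129SV, against 10.71, 10.73 and 10.63 in ES 129SV. For Grb10 the effect of origin was 0.17 in Stra8 and -1.54 in 129SV. Kdm6a, a histone demethylase on the X chromosome, had means of 9.70 in adult Stra8, 9.71 in ES Stra8, 8.28 in adult 129SV and 9.09 in ES 129SV.

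On the high side, adult 129SV was led by Calcoco2, an autophagy receptor. It gave 7.58, 7.62 and 7.42 in adult Stra8, 8.57, 8.51 and 8.65 in ES Stra8, 10.33, 10.53 and 10.37 in adult 129SV, against 7.96, 7.59 and 7.64 in ES 129SV. Adult 129SV was far above, and its interaction of -3.71 ± 0.14 was the most negative of the genes tested. The autophagy list as a whole held 4 positive and 5 negative genes among 13, against 23.2% and 25.1% of the genes tested. Dppa3, a maternal factor that shields the early embryo's methylation, gave 7.30, 7.51 and 7.39 in adult Stra8, 7.91, 8.05 and 8.20 in ES Stra8, 9.17, 9.15 and 9.53 in adult 129SV, against 6.94, 6.83 and 6.90 in ES 129SV. No group overlapped another for Dppa3, and the interaction was -3.05 ± 0.15. Muc3, an intestinal mucin, had means of 5.59, 5.77, 7.94 and 5.91 in adult Stra8, ES Stra8, adult 129SV and ES 129SV. The small nucleolar RNA Snord118 had an interaction of -3.07 with a standard error of 0.30.

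Some cholesterol synthesis genes were high in adult 129SV. Of 20 measured, 10 were negative and 6 positive, with a median of -0.19, and 6 were high in adult 129SV. Over the genes tested 25.1% were negative and 23.2% positive. The list averaged 9.01 in adult Stra8, 8.96 in ES Stra8, 9.40 in adult 129SV and 9.30 in ES 129SV, so both 129SV groups lay above both Stra8 groups. Dhcr7, which makes the last step to cholesterol, had means of 8.29 in adult Stra8, 8.38 in ES Stra8, 9.47 in adult 129SV and 8.45 in ES 129SV. Mvd, an enzyme of the mevalonate steps, had 8.06, 8.32, 9.39 and 8.57 in the same order. Sc5d and Hsd17b7 of the same pathway went the other way, with interactions of 1.82 and 0.85. Of 25 replication and mitosis genes, 13 were negative, 4 positive and 8 not called, with a median of -0.28. Over the genes whose highest group mean was at or above 7.26, the median over the 12 arrays, 34.7% were negative and 33.6% positive. Birc5 and Aurkb, members of the complex that corrects chromosome attachment, had interactions of -1.81 and -1.42, and both lie on chromosome 11, whose genes had a median interaction of -0.423. Wt1, a factor of Sertoli cells, had means of 7.17 in adult Stra8, 6.98 in ES Stra8, 8.60 in adult 129SV and 7.75 in ES 129SV, while its list of somatic testis markers had 2 positive and 3 negative among 14.

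By definition, crossed genes had opposite effects of origin, with adult Stra8 and ES 129SV on the same side. Srgn, a proteoglycan of secretory granules that parietal endoderm also makes, gave 11.64, 11.72 and 11.61 in adult Stra8, 7.72, 7.69 and 7.85 in ES Stra8, 8.63, 8.38 and 8.33 in adult 129SV, against 10.68, 10.65 and 10.50 in ES 129SV. Cubn, a nutrient receptor of the yolk sac, gave 9.22, 9.21 and 9.03 in adult Stra8, 6.06, 5.88 and 5.92 in ES Stra8, 6.34, 6.29 and 6.44 in adult 129SV, against 8.68, 8.68 and 8.59 in ES 129SV. For both genes adult Stra8 was highest and ES Stra8 lowest, with interactions of 6.07 ± 0.11 and 5.49 ± 0.10.

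Both belong to the list of endoderm and yolk sac, in which 19 of 27 measured genes were positive and 1 negative, with a median of 0.97 and 7 crossed. The list averaged 8.89 in adult Stra8, 8.15 in ES Stra8, 8.29 in adult 129SV and 8.80 in ES 129SV. Dab2, an endocytic adaptor of the same tissue, had an interaction of 2.30 on the probe set used, while a second probe set gave -0.25 with an adjusted p of 0.36. Pdgfra, the receptor of platelet-derived growth factor on primitive endoderm and fibroblasts, had 2.49. The fibroblast list was likewise highest in ES 129SV and adult Stra8, and its part in these values was not tested.

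Germ line and meiosis genes were positive more often than negative. Of 45 measured, 22 were positive, 8 negative and 15 not called, and 8 were high in adult Stra8 and 4 crossed. The shares over the genes tested were 23.2% positive and 25.1% negative. The median interaction was 0.18, and it was 0.61 over the 32 genes whose highest group mean was at or above 7.26, the median of all values on the 12 arrays. Mael, a piRNA pathway protein that silences transposons, gave 8.66, 8.76 and 8.77 in adult Stra8, 6.90, 6.89 and 6.96 in ES Stra8, 6.61, 6.55 and 6.92 in adult 129SV, against 7.99, 7.97 and 7.73 in ES 129SV. ES Stra8 and adult 129SV overlapped at the low end, and the interaction was 3.02 ± 0.14. Slc25a31, an ADP/ATP carrier of the testis, had 2.63, and the meiotic genes Hormad1 and Sohlh2 were graded with 2.36 and 2.04. Dazl, an RNA-binding protein of germ cells, differed in its pattern: it gave 7.35, 7.45 and 7.33 in adult Stra8, 6.87, 6.90 and 6.94 in ES Stra8, 6.69, 6.89 and 6.86 in adult 129SV, against 8.46, 8.34 and 8.25 in ES 129SV, so ES 129SV stood apart. Ddx4, a germ cell helicase, gave 8.45, 8.54 and 8.42 in adult Stra8, 7.89, 7.84 and 7.95 in ES Stra8, 7.57, 7.39 and 7.46 in adult 129SV, against 7.49, 7.29 and 7.53 in ES 129SV. Adult Stra8 was above the rest and both 129SV groups overlapped.

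Most Hox genes, which pattern the body axis, were not called. Of 37 measured, 11 were positive and 26 not called, with a median of 0.18, and 4 were crossed. Over the genes tested 23.2% were positive and 25.1% negative. The list averaged 6.93 in adult Stra8, 6.69 in ES Stra8 and 6.88 in both 129SV groups, below the 7.26 used for dim genes. Hoxc6 and Hoxa5 had interactions of 1.13 and 1.03. Dhrs3, a retinoic acid-induced reductase, had means of 8.71 in adult Stra8, 7.83 in ES Stra8, 7.88 in adult 129SV and 9.39 in ES 129SV. Rara, a retinoic acid receptor, was high in adult 129SV instead, with an interaction of -0.92. Of 16 retinoid genes, 6 were positive and 3 negative, and 1, Dhrs3, was crossed.

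Crossed genes with a negative interaction were low in adult Stra8 and ES 129SV. Tubb3, a tubulin of neurons, gave 8.29, 8.30 and 8.22 in adult Stra8, 9.27, 9.10 and 9.18 in ES Stra8, 9.74, 9.70 and 9.76 in adult 129SV, against 8.04, 7.90 and 7.78 in ES 129SV. Mest, a paternally expressed imprinted gene, gave 9.98, 9.98 and 9.95 in adult Stra8, 10.97, 10.86 and 10.95 in ES Stra8, 11.18, 11.23 and 11.21 in adult 129SV, against 9.76, 9.66 and 9.68 in ES 129SV. Neither gene had overlapping groups, and the interactions were -2.74 ± 0.09 and -2.46 ± 0.07. Pax6, a factor of eye and forebrain, had -1.64. The neural list held 5 positive and 8 negative among 19, against 23.2% and 25.1% of the genes tested. Zfp42, a marker of naive pluripotent cells, gave 10.04, 10.11 and 10.10 in adult Stra8, 10.82, 10.73 and 10.66 in ES Stra8, 10.57, 10.47 and 10.50 in adult 129SV, against 10.19, 10.11 and 10.23 in ES 129SV. Adult Stra8 and ES 129SV met at 10.11, and the interaction was -0.99 ± 0.08.

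ES Stra8 stood high at the Dlk1-Dio3 region, which is expressed from the maternal copy for its noncoding RNAs. Of the 47 genes measured there, 44 were negative, 1 positive and 2 not called, and 37 were high in ES Stra8. Among the 40 microRNA genes 39 were negative and 34 high in ES Stra8, with a median interaction of -1.21. These microRNA genes averaged 6.98 in adult Stra8, 8.04 in ES Stra8, 6.77 in adult 129SV and 6.58 in ES 129SV, with array ranges of 6.92 to 7.03, 8.0 to 8.06, 6.73 to 6.79 and 6.56 to 6.59. The region was delimited by position after its neighbours had been seen to run together, so these counts are a description. Of the group means of the microRNA genes, that of ES Stra8 alone lay above the 7.26 used for dim genes.

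Mir376c, host of the miR-376c sequence shown, gave 3.11, 3.17 and 3.29 in adult Stra8, 5.11, 5.24 and 5.22 in ES Stra8, 3.00, 3.26 and 3.00 in adult 129SV, against 3.21, 3.21 and 3.10 in ES 129SV. The other 3 groups overlapped, and the effect of origin was -2.00 in Stra8 and -0.08 in 129SV. Its highest group mean, 5.19 in ES Stra8, lay below the 7.26 used for dim genes, so Mir376c counts as dim. Mir377 gave 7.88, 7.77 and 7.59 in adult Stra8, 9.42, 9.33 and 9.35 in ES Stra8, 7.65, 7.34 and 7.74 in adult 129SV, against 7.24, 7.09 and 7.32 in ES 129SV. Mir379 and Mir376a had interactions of -2.28 and -1.85 with ES Stra8 apart, and Mir376b, whose seed is shared with Mir376c, had -1.39. Mir376a and Mir376b were dim too, with highest group means of 5.08 and 6.68 in ES Stra8. Mir377 and Mir379 reached 9.37 and 7.50 there, above the limit. Mir411, which shares a seed with Mir379, was graded at 6.60 in adult Stra8, 7.70 in ES Stra8, 5.29 in adult 129SV and 5.57 in ES 129SV, with an interaction of -0.81. Mir495 was graded likewise, with -2.40.

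Meg3, the long noncoding RNA of the region, gave 11.84, 11.87 and 11.88 in adult Stra8, 12.75, 12.65 and 12.70 in ES Stra8, 11.82, 11.87 and 11.81 in adult 129SV, against 11.39, 11.33 and 11.41 in ES 129SV. Adult Stra8 and adult 129SV overlapped, and the interaction was -1.29 ± 0.06. Rian, the neighbouring noncoding RNA, behaved otherwise: it gave 9.15, 8.94 and 8.90 in adult Stra8, 10.14, 10.12 and 10.10 in ES Stra8, 7.57, 7.57 and 7.64 in adult 129SV, against 8.53, 8.67 and 8.49 in ES 129SV. It was lower in adult than in ES cells in both backgrounds, by -1.12 and -0.97, and its interaction of -0.15 missed the threshold with an adjusted p of 0.22 (limma). Rtl1, the paternally expressed retrotransposon-like gene of the region, was crossed with -1.14. Dlk1, a paternally expressed Notch-like protein, was the 1 positive gene, with 0.81 and ES 129SV apart at 9.84 against 8.64 to 9.17.

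The lists of imprinted genes had no shared direction. Of 18 paternally expressed genes 5 were positive and 8 negative, and of 18 maternally expressed genes 6 were positive and 3 negative, with medians of -0.21 and -0.02 (0.02 for the maternal list after quantile normalisation). Among the genes tested 23.2% were positive and 25.1% negative. The counts of both imprinted lists include Dlk1, Rtl1, Dio3, Meg3 and Rian of the region just described. Without them, 4 of 15 paternally expressed genes were positive and 6 negative, and 6 of 16 maternally expressed genes were positive and 2 negative. Igf2, a fetal growth factor, was low in ES Stra8, with 9.72, 9.58 and 9.51 in adult Stra8, 8.44, 8.40 and 8.40 in ES Stra8, 9.65, 9.67 and 9.71 in adult 129SV, against 10.33, 10.34 and 10.32 in ES 129SV. Adult Stra8 and adult 129SV overlapped, and the interaction was 1.85 ± 0.08. Cdkn1c, an imprinted cell cycle inhibitor, had 1.91 and was graded.

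ES Stra8 was also the low group for Dnmt3b, the enzyme of new DNA methylation. Dnmt3b gave 11.08, 11.16 and 11.06 in adult Stra8, 9.64, 9.68 and 9.66 in ES Stra8, 11.03, 10.93 and 10.94 in adult 129SV, against 11.23, 11.21 and 11.21 in ES 129SV. The adult groups did not overlap, with means of 11.10 in adult Stra8 and 10.97 in adult 129SV, and the interaction was 1.69 ± 0.06. It counts in the primed epiblast list too, where 9 of 13 genes were positive and 2 negative, with a median of 0.59. In the chromatin and DNA methylation list 9 of 25 were positive and 9 negative. Beside both lists, 23.2% of the genes tested were positive and 25.1% negative. Thy1, a surface marker of spermatogonial stem cells and fibroblasts, was low in ES Stra8 with means of 11.34, 10.54, 11.02 and 11.30 in adult Stra8, ES Stra8, adult 129SV and ES 129SV. Fbxo15, an ES cell gene, was high in ES Stra8 with an interaction of -1.11.

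Adult Stra8 was the group least often apart among all called genes, and among those of at least 2-fold it was apart in 67, against 66 for ES Stra8. Cyct, the cytochrome c of the testis, gave 11.17, 11.33 and 11.40 in adult Stra8, 9.14, 9.17 and 9.15 in ES Stra8, 8.63, 8.67 and 8.56 in adult 129SV, against 8.38, 8.49 and 8.48 in ES 129SV. Its effect of origin was 2.14 in Stra8 and 0.17 in 129SV. Tspan8, a membrane tetraspanin, gave 8.41, 8.36 and 8.36 in adult Stra8, 6.21, 6.00 and 6.15 in ES Stra8, 6.29, 6.58 and 6.34 in adult 129SV, against 5.96, 6.14 and 6.03 in ES 129SV. Nlrp4a, of a family expressed in oocytes, had an interaction of 2.21, and the Y-linked translation factor Eif2s3y had 1.18. Nlrp4a counts as dim, with its highest group mean at 6.50 in adult Stra8. Of 8 measured Y-linked genes 3 were positive and 5 not called, Uty among them with 1.98 and crossed.

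On the low side of adult Stra8 the largest gap was that of Enpp3, an ectonucleotidase. It gave 7.74, 7.71 and 7.53 in adult Stra8, 9.95, 9.93 and 10.05 in ES Stra8, 10.44, 10.42 and 10.38 in adult 129SV, against 10.10, 10.05 and 9.99 in ES 129SV, and the interaction was -2.68 ± 0.09. Pnma5 on the X chromosome gave 7.02, 7.09 and 7.04 in adult Stra8, 8.85, 8.83 and 8.91 in ES Stra8, 9.31, 9.26 and 9.41 in adult 129SV, against 8.48, 8.62 and 8.52 in ES 129SV. For both genes the adult Stra8 arrays lay more than 1 log2 unit below the other 9. Dppa4, a chromatin protein of pluripotent cells, had means of 9.23 in adult Stra8, 10.14 in ES Stra8, 10.43 in adult 129SV and 10.05 in ES 129SV.

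**Figure D3:**
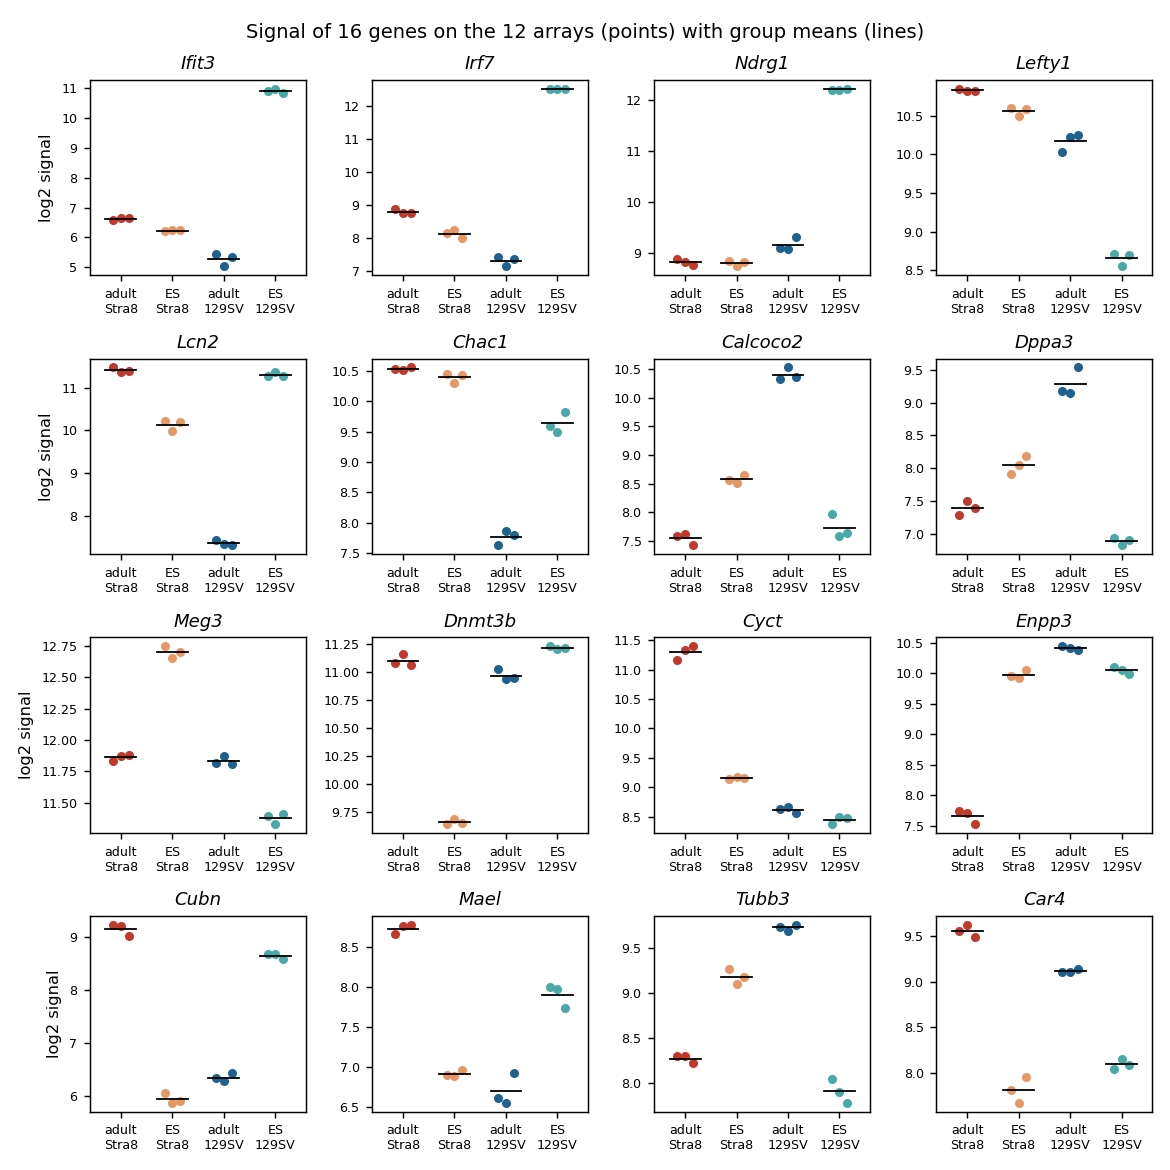
Log2 signal (vertical) of 16 genes on each of the 12 arrays, as 1 point per array with a line at the mean of 3, in adult Stra8, ES Stra8, adult 129SV and ES 129SV; axes differ between genes and do not start at 0. Ifit3, Irf7, Ndrg1 and Lefty1 have ES 129SV apart, Lcn2, Chac1, Calcoco2 and Dppa3 adult 129SV, Meg3 and Dnmt3b ES Stra8, Cyct and Enpp3 adult Stra8, while Cubn, Mael and Tubb3 are crossed and Car4 is split by origin.

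Pluripotency genes had negative interactions more often than positive ones. Of 27 measured, 17 were negative and 5 positive, with a median of -0.41, and 5 were negative by at least 2-fold, down to -3.05 for Dppa3. The shares over the genes tested were 25.1% negative, 23.2% positive and 2.3% negative by at least 2-fold. Nanog, a core factor, gave 11.57, 11.53 and 11.51 in adult Stra8, 12.25, 12.28 and 12.28 in ES Stra8, 11.82, 11.89 and 11.96 in adult 129SV, against 11.98, 11.98 and 12.01 in ES 129SV. It was graded, with an effect of origin of -0.74 in Stra8 that was called and of -0.10 in 129SV with an adjusted p of 0.087, and an interaction of -0.64 ± 0.07. Pou5f1 had an interaction of 0.01 with a standard error of 0.08, and its groups differed by background. Sox2, the partner of Pou5f1, had -0.15 with an adjusted p of 0.071, and Klf4, another network factor, -0.22 with an adjusted p of 0.037. Both values changed sides of the threshold under other settings, with Sox2 at 0.019 after centring the arrays and Klf4 at 0.057 with 18 arrays in the fit.

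Stra8, the retinoic acid-induced germ cell gene that names a background, had means of 5.87 in adult Stra8, 5.84 in ES Stra8, 6.57 in adult 129SV and 6.54 in ES 129SV. Its interaction was -0.01 with a standard error of 0.18. Gfra1, the receptor of the niche factor GDNF, was high in ES 129SV with an interaction of 0.89. Of 21 spermatogonial stem cell markers 6 were positive and 8 negative, with a median of -0.14, against 23.2% and 25.1% of the genes tested. Xist, the RNA of X inactivation, was graded at 8.10 in adult Stra8, 7.46 in ES Stra8, 7.51 in adult 129SV and 8.70 in ES 129SV.

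Among genes called in both backgrounds with the same sign, Car4, Mme, Rian and Elovl7 had the largest effects by the smaller of both. Car4, a carbonic anhydrase, gave 9.55, 9.61 and 9.48 in adult Stra8, 7.82, 7.68 and 7.97 in ES Stra8, 9.10, 9.10 and 9.14 in adult 129SV, against 8.05, 8.16 and 8.09 in ES 129SV. The adult arrays all lay above the ES arrays, and the effects of 1.73 in Stra8 and 1.01 in 129SV still differed by an interaction of 0.71 ± 0.10. Mme, a membrane peptidase, gave 8.52, 8.49 and 8.51 in adult Stra8, 9.65, 9.68 and 9.72 in ES Stra8, 8.26, 8.17 and 8.30 in adult 129SV, against 9.21, 9.31 and 9.15 in ES 129SV. Its effects were -1.17 in Stra8 and -0.98 in 129SV, and the interaction of -0.19 ± 0.08 lay at the threshold with an adjusted p of 0.0499. That call was lost when any 1 of 10 arrays was left out. Elovl7, a fatty acid elongase, had effects of -0.98 in Stra8 and -1.33 in 129SV, with adult 129SV apart at 7.10.

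**Figure D4:**
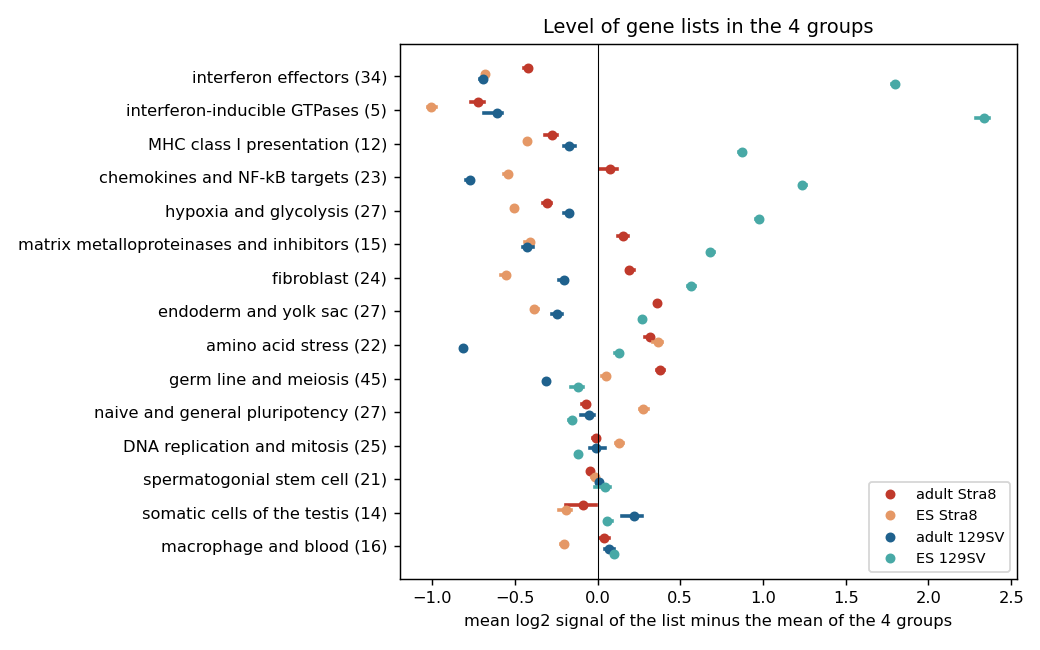
Mean log2 signal of 15 gene lists in each group, minus the mean of the 4 groups (horizontal); points are means of 3 arrays, bars run from the lowest to the highest array, and the number of genes measured is in brackets. ES 129SV lies far to the right for interferon, MHC class I, chemokine and hypoxia lists, and adult 129SV far to the left for amino acid stress.

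Interactions were uneven over the chromosomes. Among 11963 genes whose highest group mean was at or above 7.26, deviations from the mean of the 12 arrays were centred per array and summarised by chromosome. The 655 genes of chromosome 1 had medians of 0.251, 0.231 and 0.218 in adult Stra8, -0.036, -0.039 and -0.040 in ES Stra8, -0.168, -0.161 and -0.171 in adult 129SV, against -0.029, -0.021 and -0.038 in ES 129SV. Adult Stra8 was above every other array there and adult 129SV below. Adult 129SV was the lowest group on other chromosomes too, among them 13, 18 and X. Its means there were -0.141, -0.13 and -0.114, against -0.167 on chromosome 1. The median interaction on chromosome 1 was 0.397, with 60.9% of its genes positive and 10.2% negative, against 33.6% and 34.7% over the 11963 genes.

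Chromosomes 8 and 11 shifted the other way. The 652 genes of chromosome 8 had medians of -0.089, -0.088 and -0.096 in adult Stra8, 0.035, 0.038 and 0.034 in ES Stra8, 0.164, 0.170 and 0.155 in adult 129SV, against -0.092, -0.101 and -0.097 in ES 129SV. The 1032 genes of chromosome 11 had medians of -0.097, -0.097 and -0.096 in adult Stra8, 0.031, 0.024 and 0.029 in ES Stra8, 0.170, 0.186 and 0.176 in adult 129SV, against -0.099, -0.108 and -0.092 in ES 129SV. On both chromosomes adult 129SV was the highest group, and the median interactions were -0.420 and -0.423. Over the other autosomes and the X chromosome median interactions ran from -0.132 to 0.243, and the 4 such genes of the Y chromosome had a median of 0.725. The 6 differentiated arrays of the 129SV background share no array with these values. In a fit of their own, 11.8% of the genes tested were higher and 5.9% lower in differentiated adult than in differentiated ES cells. Over the 11963 genes used for the chromosomes these shares were 17.5% and 7.08%, while 51.1% of them were higher on chromosome 8 and 51.3% on chromosome 11. DNA copy number was not measured here.

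Many of the genes described lie on these chromosomes. Of the 458 negative genes of at least 2-fold, 226 (49.3%) lay on chromosome 8 or 11, which hold 12.6% of the genes tested and 7.1% of the positive genes of at least 2-fold. Of genes with a negative interaction, Calcoco2, Snord118, Snord42a, Aurkb, Birc5, Rara and Pecam1 lie on chromosome 11, and Tubb3, Zfp42 and Mvd on chromosome 8. Genes with a positive interaction lie on chromosome 11 too, among them Grb10, Krt19 and P4ha2. On chromosome 1 lie Mael, with a positive interaction, and Lefty1, with a negative one. Of the 280 called genes high in adult Stra8, 74 (26.4%) lay on chromosome 1, which holds 5.6% of the genes tested. Of the 1625 called genes high in adult 129SV, 425 (26.2%) lay on chromosome 8 or 11. Dppa3 and Mest lie on chromosome 6 and Enpp3 on chromosome 10, outside these. Chromosome 6 shifted in the direction of chromosomes 8 and 11 by less. Its median interaction was -0.101, adult 129SV was its highest group at 0.077, and 32.1% of its genes were higher in differentiated adult cells.

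**Figure D5:**
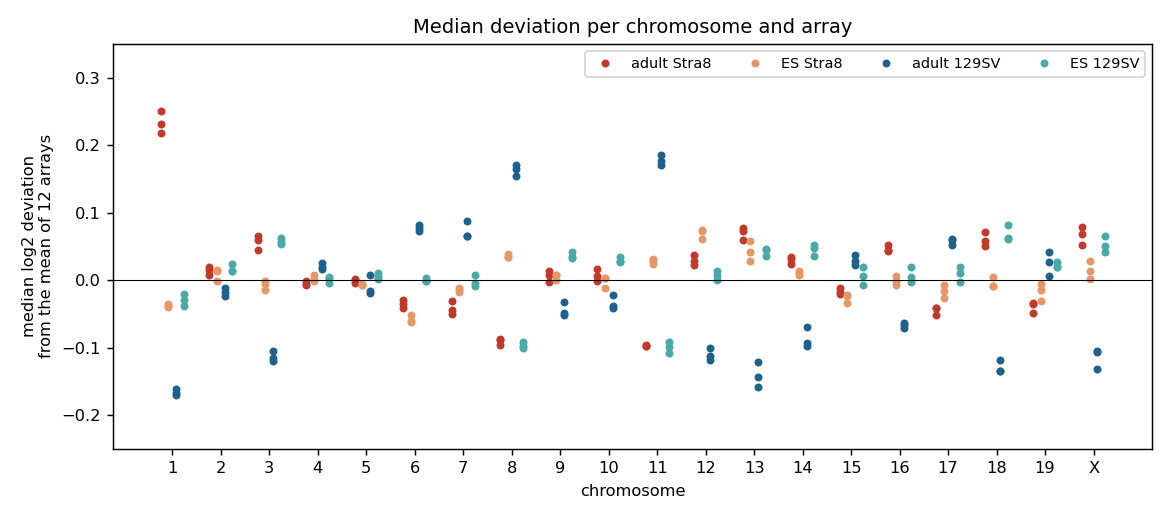
Median log2 deviation from the mean of 12 arrays (vertical), centred per array, for genes of each chromosome whose highest group mean was at least 7.26; each point is 1 array. Adult Stra8 is at 0.218 to 0.251 on chromosome 1, and adult 129SV is at 0.155 to 0.186 on chromosomes 8 and 11.

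Runs of at least 4 neighbouring genes with interactions of at least 2-fold and 1 direction numbered 7. On chromosome 1 the interferon-induced DNA sensor family gave Ifi209, Ifi208, Ifi207, Ifi203, Ifi202b and Ifi205, with interactions of 1.3 to 5.43 and ES 129SV high for each. On chromosome 3 Gbp5, Gbp7, Gbp3 and Gbp2b, GTPases that bind membranes of microbes, gave 1.71 to 3.29, and ES 129SV was high for each of them. On chromosome 19 Ch25h, Lipa, Ifit2, Ifit3 and Ifit3b gave 1.5 to 6.01, of which Ch25h, which makes an antiviral sterol, and Lipa, a lysosomal lipase, were crossed. Members of the Ifi and Gbp families are close in sequence, and their probe sets may read each other. On chromosome 11 Tmem94, Caskin2, Tsen54 and Llgl2 gave -1.25 to -1.02 without a shared group apart. The remaining runs were the Mmp genes of chromosome 9 and 2 runs within the Dlk1-Dio3 region, of 6 and 8 genes.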

How the data were processed

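The deposited values are log2 signals, 1 per probe set. Per the submitters' processing notes, RMA was run in Affymetrix Expression Console, with no version given. This method corrects background, equalises array distributions and summarises probes, so values hold no absolute level. Whether the 18 arrays were normalised together is not given in the sources used here. Values ran from 1.27 to 14.57 and were used as deposited. Of 35556 probe sets, 21789 had 1 gene symbol, 1621 several and 12146 none in the platform annotation, and 21698 matched a RefSeq gene ID. For 999 genes with several probe sets the one with the highest mean over 18 arrays was used, which left 19938 genes.

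Group means were fitted to the 12 arrays with limma 3.58.1 (lmFit, eBayes, R 4.3.3), with 8 residual and 3.57 prior degrees of freedom. Genes were called at a Benjamini-Hochberg adjusted p under 0.05 over the 19938 genes. The number of arrays limits the precision. The script was tested on simulated data. Groups standing apart, chromosome medians and runs are descriptions with no test. Members, lists and tests were chosen with earlier results of these data known, so list counts are not independent support. Named genes were the 12 most positive and 12 most negative interactions, the 4 with the largest gap for each group and direction, up to 4 called members per list, the 4 strongest with effects of opposite or of the same sign, 12 fixed genes and the runs. Of 625 listed genes in 28 lists, 577 were measured. Prrx1, Col1a1, Mir411 and Dlk1 were added after their values were seen. Alternatives were all 18 arrays, a replicate block, array weights, centring, quantile normalisation, every probe set, a filter on dim genes and leaving out each array. Same-numbered arrays deviated together with correlations of -0.154 to 0.143, so the numbers do not pair the samples.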

Additional observations from a re-analysis of the deposited data

Results flagged for a closer look

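The effect of origin differed between backgrounds for 9644 genes in the test of the interaction itself. The most positive differences were those of Cxcl10 (6.29), Srgn (6.07), Ifit3 (6.01), Irf7 (5.89), Cubn (5.49) and Ifit3b (5.46). Next came Ifi203 (5.43), Trim30a (5.34), Usp18 (5.33), Lcn2 (5.2), Ifi205 (5.15) and Iigp1 (5.14). Of these 12 genes, 9 had ES 129SV apart on the high side, Lcn2 had adult 129SV apart on the low side, and Srgn and Cubn were crossed. The most negative differences were those of Calcoco2 (-3.71), Snord118 (-3.07), Dppa3 (-3.05), Tubb3 (-2.74), Enpp3 (-2.68) and Snord42a (-2.61). They were followed by Pnma5 (-2.60), AU015836 (-2.55), Mest (-2.46), Mir495 (-2.40), Mir379 (-2.28) and Snord52 (-2.23). Adult 129SV was apart for 3 of them, adult Stra8 for 3, ES 129SV and ES Stra8 for 1 each, while 3 were crossed and 1 graded.

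The gene tests did not use 13767 probe sets that carry no single symbol. In a fit of all probe sets, 494 of them (3.59%) had a positive interaction of at least 2-fold and 811 (5.89%) a negative one, and 4305 (31.3%) were called in all. Among probe sets with 1 symbol the shares of at least 2-fold were 6.2% positive and 2.43% negative.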

How the results depend on the processing

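The count of 9644 called genes ran from 8588 to 10670 over the alternatives with named probe sets: 8588 with 18 arrays in the fit (8544 genes shared), 9963 with array weights, 10138 with arrays centred, 9694 after quantile normalisation, 10670 with every probe set and 8758 without dim genes. Replicate numbers do not pair the samples, and the replicate block gave 9528 (9319 shared). Leaving out 1 array gave 8999 to 9627 genes called and 1687 to 1765 of at least 2-fold. With all 35556 probe sets, a setting chosen after seeing the data, 3186 had an interaction of at least 2-fold. Requiring a gap of 2 times the range left 2803 genes with 1 group apart, against 5765. Of 3113 values of the 173 named genes, 3078 kept direction and side of the threshold, and 166 genes did so throughout.

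Signs turned for Dab2 (-0.252, second probe set), Pou5f1 (-0.034 centred, and -0.025 to 0.061 leaving out 1 array), Stra8 (0.055 with weights, 0.037 quantile normalised, and -0.198 to 0.154 leaving out 1 array) and the median of maternally expressed imprinted genes (0.015, quantile normalised). Of these genes, Dab2 was called, on the probe set used. Klf4 lost its call in 7 settings, with adjusted p up to 0.0946, and Sox2 gained one in 5, down to 0.0192. Rian was called without adult Stra8 replicate 1 (0.0373). The cause was not tested. Leaving out dim genes gave a median of 0.611 for germ line and meiosis genes, against 0.182 as reported. Positive calls made up 48% as reported and 42.4% with arrays centred, which moved the median of all genes by -0.047. Depth in the sense of signal over background was not available, so values of dim genes have no lower limit.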

Other observations

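The 6 differentiated arrays of the 129SV background took no part in the interaction, and their adult-minus-ES difference was fitted apart with limma. Over the genes tested, 11.8% were called higher and 5.9% lower in differentiated adult cells, and over the 11963 genes that were not dim, on which the values by chromosome rest, 17.5% were higher and 7.08% lower. Of the 34 interferon effectors 4 were higher and 4 lower, with a median difference of 0.04, against -2.18 before differentiation. On chromosomes 8 and 11, 333 of 652 and 529 of 1032 genes were higher in differentiated adult cells, with medians of 0.33 on both, against 0.27 and 0.26 before differentiation. On chromosome 1 the median was -0.01, against -0.13 before. Of 561 genes on chromosome 6, 180 (32.1%) were higher, with a median of 0.19, against 0.09 before. Whether DNA copy number moved with these values was not measured.

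Of the 323 genes with an interaction of at least 2-fold, ES 129SV high and a promoter in the table, 50 (15.5%) held the interferon-stimulated response element, against 3.89% of the genes tested.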
